A study of Sus scrofa with 24 samples.

Results

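The macrophage and C1q genes are a set of 9 genes: the complement C1q chains C1QA, C1QB and C1QC, the surface receptors CD163, CD14 and CSF1R, and AIF1, CD68 and LYZ. A probe set, the group of short oligonucleotides that reads a transcript on the array, was taken as a member when the platform annotation gave it a single gene symbol and that symbol was in the set. This found 7 probe sets for 5 of the 9 genes, among 23935 tested probe sets and 6765 genes with such a probe set: C1QA and C1QC with 1 each, AIF1 with 1, and CD163 and CD14 with 2 each. CSF1R, CD68, C1QB and LYZ had no such probe set and are not described.

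The samples came from pigs (Sus scrofa), the offspring of German Landrace gilts that were all on a gestational high protein diet, so no animal on another diet is part of the comparison. Each of 4 ages had 6 animals, namely fetuses at 94 days post conception (94 dpc) and animals at 1, 28 and 188 days post natum (dpn). Each stage drew on 3 gilts, and shared mothers are not named in the labels. The p-values treat the 6 animals as independent. Total RNA of each animal was read on 1 Affymetrix Porcine Genome array, and the stages were compared to ask how expression changed with age. Values are signal intensities on a linear scale, and differences are log2 of the later minus the earlier stage.

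C1q is the recognition part of the C1 complex, which starts the classical pathway of complement. It is built from the products of C1QA, C1QB and C1QC, genes that lie next to each other in the pig assembly Sscrofa11.1, and unlike most complement proteins it is made mainly by macrophages and dendritic cells rather than by hepatocytes. CD163 is the macrophage receptor that takes up haemoglobin bound to haptoglobin. CD14 is a co-receptor for bacterial lipopolysaccharide that works with the Toll-like receptor TLR4 and its partner LY96. AIF1, also called IBA1, is a calcium-binding protein of macrophages and microglia that binds actin. In these whole-tissue samples fewer macrophages and less of the transcript per macrophage cannot be told apart.

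The labels name liver as the tissue and the title of the series names muscle. The summed intensity of 10 skeletal muscle genes was 207592 to 648489 over the 24 arrays, and that of 11 plasma protein genes of hepatocytes 1324 to 198017. In 188 dpn animals 1, 2 and 3 the plasma protein sum was 198017, 154333 and 31514, against 1324 to 2298 in the other 3 animals of that stage. The fetuses had sums of 7962 to 59571, the newborns 2814 to 31271 and the animals of 28 dpn 3120 to 7422. Fetuses 1 and 2 lay above 188 dpn animal 3. In 1 dpn animals 1, 2 and 3 the EF1A control had a 5′ over 3′ signal of 0.135, 0.105 and 0.0963, against 0.670 to 0.703 in the other 3 newborns and 0.512 to 1.05 at the other stages. The same ratio of the GAPDH control was 0.424, 0.581 and 0.616 in these animals and 0.907 to 0.996 in the other 3 newborns. At the other stages it was 0.614 to 0.870, so low 5′ signal below refers to EF1A. The fetus numbered 5 at 94 dpc stood apart in immune genes, as given with its values below. The 3 animals of 188 dpn, the 3 newborns and fetus 5 are the 7 arrays left out in some fits below. A signal under 74.7, the level that 95% of readings of the Tag control probe sets stayed under, is called background.

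Of the C1q chains, C1QC had the lowest mean at 1 dpn and the highest at 28 dpn. Its intensity in the 6 animals was 1397, 1746, 1819, 1896, 15868 and 2297 at 94 dpc. At 1 dpn it was 364, 365, 576, 1624, 1121 and 2886. At 28 dpn it was 2115, 2861, 5947, 2312, 4272 and 2956. At 188 dpn it was 1819, 2059, 1351, 2183, 836 and 1680. Fetus 5 lay above every other animal, and 3 newborns lay below every animal of the other stages.

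The geometric mean of C1QC was 2596 at 94 dpc, 859 at 1 dpn, 3188 at 28 dpn and 1579 at 188 dpn, with SDs of 1.30, 1.22, 0.56 and 0.51 in log2 (n = 6 each). In the order 28 dpn, 94 dpc, 188 dpn and 1 dpn, no 2 neighbours differed past the threshold (adjusted p = 0.738, 0.321 and 0.228 from the top). C1QC fell at 1 dpn against 94 dpc, by 1.60 in log2 (SE 0.54, adjusted p = 0.0279, limma), with 5 of 6 newborns below the fetal mean. It rose at 28 dpn against 1 dpn by 1.89 (SE 0.54, adjusted p = 0.0151), with all 6 animals above the newborn mean, and the stages overlapped in both comparisons.

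Neither C1QC call passed without the newborn arrays with low 5′ signal of EF1A, a fit that keeps 3 newborns. The 3 lowest newborns, with 364, 365 and 576, were the 3 whose EF1A ratio was 0.135 or less, and the other 3 had 1624, 1121 and 2886. Without those 3 arrays the difference at 1 dpn against 94 dpc was -0.58 (adjusted p = 0.517) and that at 28 dpn against 1 dpn was 0.87 (adjusted p = 0.370). Without fetus 5 alone, C1QC at 1 dpn against 94 dpc was -1.07 (adjusted p = 0.0756). The difference at 28 dpn against 1 dpn cannot change without this fetus, which is in neither stage. Only the spread estimated over all stages changed, and the rise passed (adjusted p = 0.00269). Without all 7 arrays the values were -0.06 (adjusted p = 0.938) and 0.87 (adjusted p = 0.145). With arrays centred on their medians C1QC at 1 dpn against 94 dpc was -1.27 and did not pass (adjusted p = 0.0756).

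**Figure D1:**
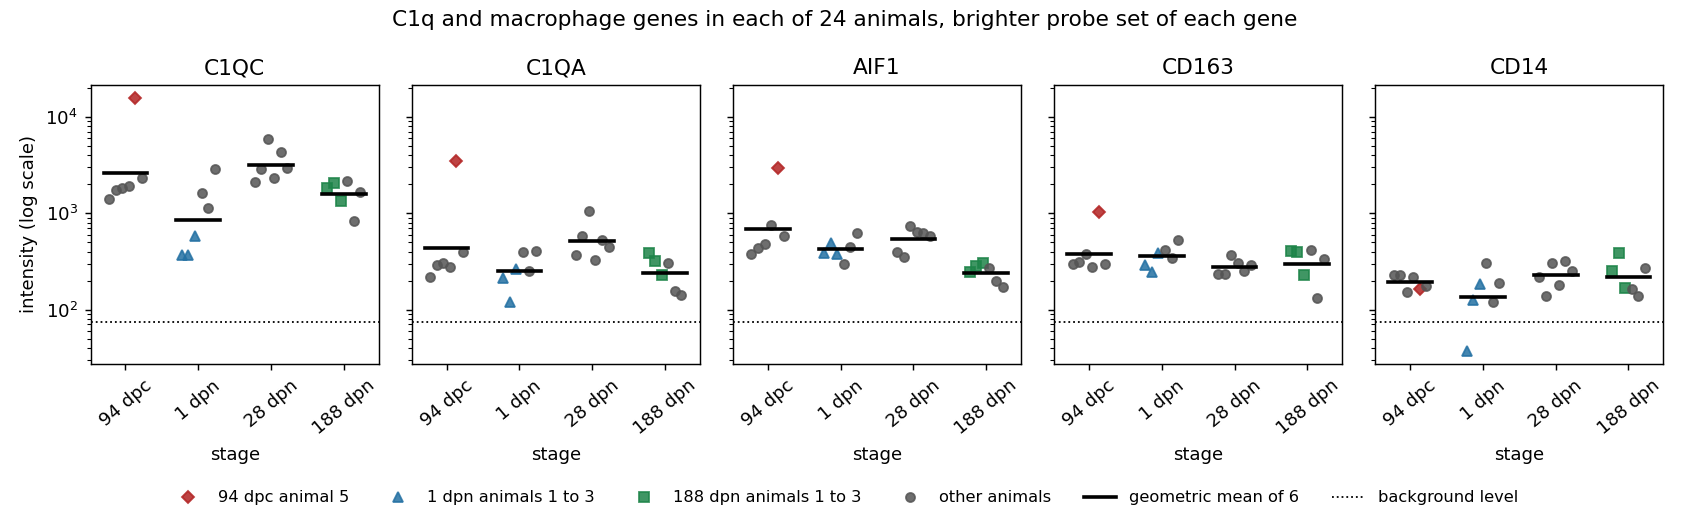
Signal intensity (log scale) of C1QC, C1QA, AIF1, CD163 and CD14 in each of the 24 animals by stage, the brighter probe set of each gene, with the geometric mean of 6 animals as a line and background as a dotted line. Fetus 5 (diamond) is the highest value of C1QC, C1QA, AIF1 and CD163, at 15868, 3478, 2927 and 1040, while its CD14 of 165 lies among the other fetuses.

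C1QA, the other chain measured, had its highest mean at 28 dpn as well. At 94 dpc it was 217, 292, 301, 277, 3478 and 392, and at 1 dpn 211, 119, 263, 397, 252 and 408. At 28 dpn it was 368, 581, 1054, 327, 532 and 449, and at 188 dpn 384, 319, 229, 302, 155 and 142. The geometric means were 440, 254, 510 and 239 from the youngest to the oldest stage (SDs in log2 1.49, 0.66, 0.60 and 0.58). Fetus 5 again stood alone, and animal 3 was the highest at 28 dpn for both chains.

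No comparison of C1QA passed the threshold with all 24 arrays. At 28 dpn against 1 dpn the difference was 1.01 (SE 0.51, 95% interval -0.05 to 2.06, adjusted p = 0.179), and at 188 dpn against 28 dpn it was -1.09 (SE 0.51, 95% interval -2.15 to -0.04, adjusted p = 0.170). The SD of the fetuses in log2 was 1.49 with fetus 5 and 0.30 without it. Without this fetus the differences were as large and both passed: 1.01 (adjusted p = 0.0302) and -1.09 (adjusted p = 0.0248). Without all 7 arrays C1QA was 0.57 at 28 dpn against 1 dpn (adjusted p = 0.322) and -1.44 at 188 dpn against 28 dpn (adjusted p = 0.0131). C1QC at 188 dpn against 28 dpn was -1.01 (adjusted p = 0.241), and -1.13 without the 7 arrays (adjusted p = 0.0636).

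**Figure D2:**
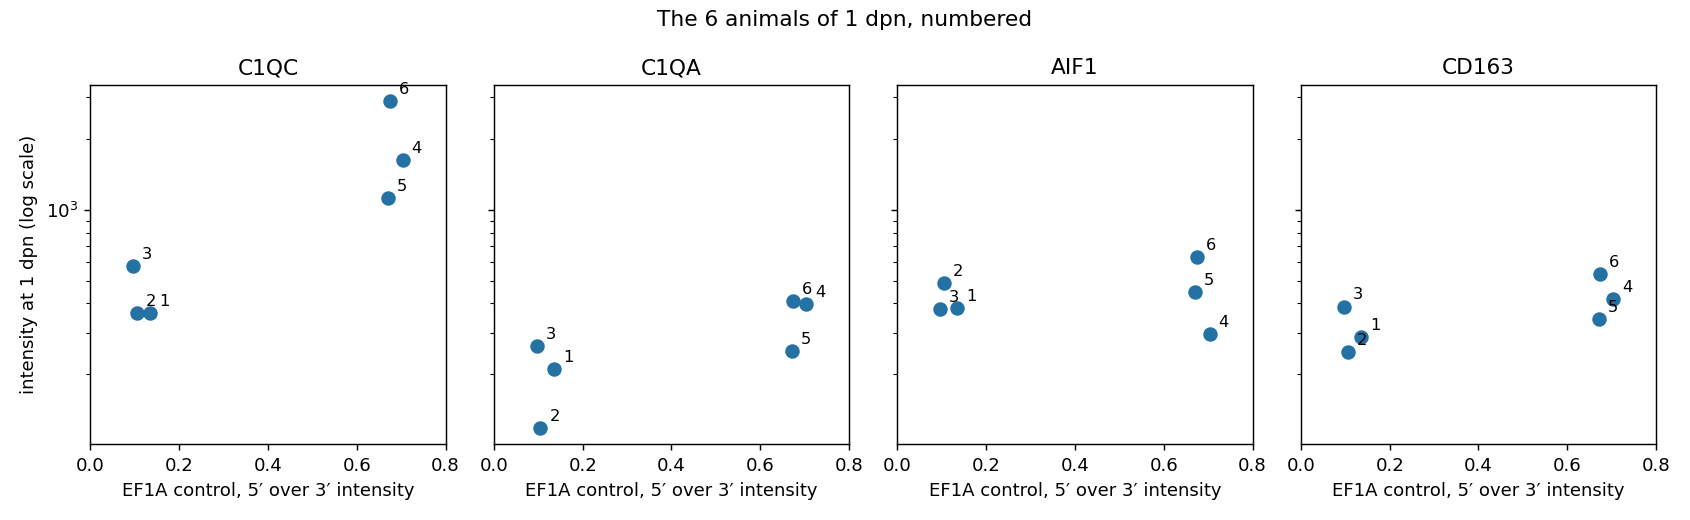
Intensity of C1QC, C1QA, AIF1 and CD163 (log scale) in the 6 animals of 1 dpn, numbered, against the 5′ to 3′ ratio of the EF1A control of the same array. Animals 1, 2 and 3 have ratios of 0.135 or less, and their C1QC of 364, 365 and 576 lies under the 1121 to 2886 of animals 4 to 6, while AIF1 overlaps between these animals.

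AIF1 had its lowest mean at 188 dpn. It was 374, 435, 481, 762, 2927 and 576 at 94 dpc and 383, 487, 379, 297, 446 and 629 at 1 dpn. It was 397, 354, 735, 633, 627 and 576 at 28 dpn and 248, 283, 302, 268, 200 and 170 at 188 dpn. The highest animal of 188 dpn, at 302, lay below every animal of 94 dpc and of 28 dpn and above 1 of the 6 newborns, at 297.

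The geometric mean of AIF1 was 682, 425, 536 and 240 from the youngest to the oldest stage (SDs in log2 1.09, 0.37, 0.42 and 0.32). AIF1 fell at 188 dpn against 94 dpc, by 1.50 (SE 0.36, adjusted p = 0.00165), with 240 at 188 dpn and 682 at 94 dpc. It also fell at 188 dpn against 28 dpn, by 1.16 (SE 0.36, adjusted p = 0.0326), with 240 at 188 dpn and 536 at 28 dpn. The difference at 188 dpn against 1 dpn was -0.82 (adjusted p = 0.0814). The differences among 94 dpc, 1 dpn and 28 dpn ranged from -0.68 to 0.33 and none passed.

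The fall of AIF1 at 188 dpn against 94 dpc passed in all 37 alternatives run, at -1.71 to -0.97. Without fetus 5 it was -1.08 (adjusted p = 0.000868), and without the 7 arrays -1.29 (adjusted p = 0.00401). The fall at 188 dpn against 28 dpn was -0.98 with quantile normalization (adjusted p = 0.136) and -0.89 with arrays centred on their medians (adjusted p = 0.104), and did not pass in either. Without the 3 animals of 188 dpn with high plasma protein signal it was -1.36 (adjusted p = 0.0793). Against 1 dpn, AIF1 at 188 dpn passed without fetus 5 (-0.82, adjusted p = 0.00660) and without the 7 arrays (-1.07, adjusted p = 0.0365). Fetus 5 is in neither of these stages, so leaving it out changed the estimated spread and not the difference.

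CD163, on its brighter probe set, passed in no comparison. It was 294, 309, 373, 274, 1040 and 298 at 94 dpc, 288, 248, 388, 418, 344 and 533 at 1 dpn, 232, 231, 365, 308, 252 and 287 at 28 dpn, and 408, 399, 226, 415, 131 and 336 at 188 dpn. The geometric means were 377, 359, 275 and 296 in that order, and all 4 stages overlapped. The 6 differences ranged from -0.45 to 0.10, and the lowest, at 28 dpn against 94 dpc, had a 95% interval of -1.10 to 0.20. Without fetus 5 the fetal mean was 308 and the difference at 188 dpn against 94 dpc was -0.06 (adjusted p = 0.896).

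The brighter CD14 probe set was 226, 226, 153, 217, 165 and 175 at 94 dpc, 37, 124, 183, 308, 121 and 190 at 1 dpn, 219, 137, 303, 181, 322 and 250 at 28 dpn, and 253, 389, 168, 164, 139 and 267 at 188 dpn. The lowest value, 37, was newborn 1 and lay under background. The geometric means were 191, 134, 226 and 216 in that order. No comparison passed, and the largest difference, 0.75 at 28 dpn against 1 dpn (95% interval -0.01 to 1.51, adjusted p = 0.161), was 0.24 without the 3 newborns of low 5′ signal. Unlike the C1q chains, AIF1 and CD163, CD14 was not raised in fetus 5, which at 165 lay within the 153 to 226 of the other fetuses.

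The second probe sets of CD163 and CD14 read signals near or under background and did not follow the brighter ones. That of CD163 had geometric means of 34.97, 10.7, 38.1 and 63.6 from the youngest to the oldest stage, and 20 of 24 readings lay under background. That of CD14 had 15.6, 62.1, 18.7 and 38.0, and 20 of 24 readings lay under background as well. Their 2 calls, a higher CD14 signal at 1 dpn against 94 dpc (adjusted p = 0.0414) and a higher CD163 signal at 188 dpn against 1 dpn (adjusted p = 0.0212), are between means that all lie under background, so no fold is given. Without the 7 arrays neither passed (adjusted p = 0.184 and 0.212).

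**Figure D3:**
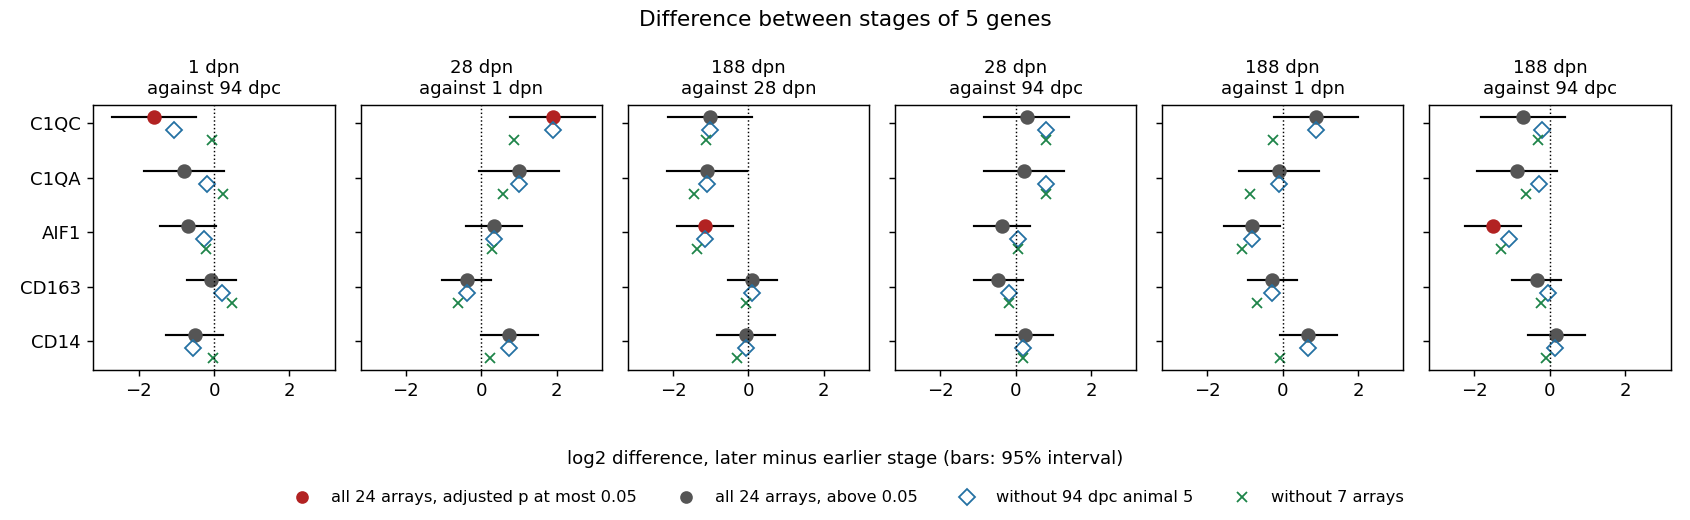
Differences in log2, later minus earlier stage, of 5 genes in the 6 comparisons, from all 24 arrays with 95% intervals (red where the adjusted p was at most 0.05), without fetus 5 (open diamonds) and without the 7 arrays (crosses). AIF1 stays on the same side in both comparisons it passed, at -1.50 and -1.16 with all arrays and -1.29 and -1.36 without the 7, while C1QC at 1 dpn against 94 dpc is -1.60 with all arrays and -0.06 without the 7.

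Over the 7 member probe sets the counts were small. At 1 dpn against 94 dpc 1 was higher (the second CD14 probe set) and 1 lower (C1QC), where 10.1% of all tested probe sets were higher and 20.8% lower. At 28 dpn against 1 dpn 1 was higher (C1QC), where 11.6% of all were higher and 9.10% lower. Against 28 dpn, 1 was lower at 188 dpn (AIF1), where 4.12% were higher and 10.5% lower. At 28 dpn against 94 dpc none passed with limma and none reached an unadjusted p of 0.05, where 10.4% were higher and 17.5% lower.

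At 188 dpn against 1 dpn 1 member was higher (the second CD163 probe set), where 14.1% of all tested probe sets were higher and 20.8% lower. Against 94 dpc, 1 was lower at 188 dpn (AIF1), where 12.5% were higher and 27.4% lower. In the F test over the 4 stages C1QC (adjusted p = 0.0211) and AIF1 (adjusted p = 0.00712) passed, 2 of the 7, where 52.3% of all tested probe sets did. These shares lie near or under those of all probe sets. The median difference of the members was -0.68 at 1 dpn against 94 dpc, 0.75 at 28 dpn against 1 dpn and -0.35 at 188 dpn against 94 dpc, where the medians over all probe sets were -0.15, 0.02 and -0.29. It was -0.07 at 188 dpn against 28 dpn, 0.21 at 28 dpn against 94 dpc and -0.09 at 188 dpn against 1 dpn, where those of all probe sets were -0.18, -0.14 and -0.20. These medians include the second CD163 and CD14 probe sets, which read mostly under background.

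The split of all tested probe sets into higher and lower moved with the scaling. With arrays centred on their medians 17.2% were higher and 11.8% lower at 1 dpn against 94 dpc, 8.67% and 5.11% at 188 dpn against 28 dpn, 15.2% and 9.93% at 28 dpn against 94 dpc, 18.2% and 15.0% at 188 dpn against 1 dpn, and 23.7% and 15.2% at 188 dpn against 94 dpc. With quantile normalization the shares were 13.3% and 14.6%, 4.75% and 6.57%, 12.8% and 12.7%, 16.0% and 16.8%, and 17.6% and 18.4% in the same order. Centring brought the median of all probe sets at 188 dpn against 94 dpc to 0.25, and quantile normalization to 0.05. AIF1 fell in that comparison under both scalings.

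Fetus 5 at 94 dpc was the highest of the 6 fetuses in 5 of the 7 member probe sets, and in 24.3% of all tested probe sets. C1QC was 15868 in fetus 5, against 1397 to 2297 in the other 5 fetuses. C1QA was 3478 in fetus 5, against 217 to 392 in the others. AIF1 was 2927, against 374 to 762, and CD163 was 1040, against 274 to 373. Its array had an EF1A ratio of 1.04 and the highest median intensity of all arrays, 188.

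In the same fetus, 27 of 31 measured genes in a list of other macrophage genes were the highest of the 6, with a median of 2.10 in log2 above the median of the others. The cathepsin CTSS was 9957, against 837 to 1292 in the other fetuses. The lysosomal membrane protein LAPTM5 was 3311 against 585 to 673, and VSIG4, a complement receptor of tissue macrophages, was 2141 against 302 to 501. C1R, C1S and SERPING1, the proteases and the inhibitor of C1, were all highest in this fetus, with C1R at 8950. The macrophage genes and the partners of C1q were thus high in the same animal as the C1q chains. The genes named here were chosen after their values were seen.

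Markers of lymphocytes were high in fetus 5 too. The 2 B cell genes measured were both the highest, with a median of 4.11 in log2 above the others, and JCHAIN, which joins polymeric immunoglobulin, was 5108 against 47 to 73. Of 9 T and NK cell genes 6 were the highest, and CD2 was 1210 against 4 to 21. The sum of the T and NK cell genes was 2311, against 260 to 368 in the others. None of 6 endothelial, 7 neutrophil, 10 skeletal muscle or 11 plasma protein genes was the highest in fetus 5, and their medians were -0.61, -0.16, -0.49 and -1.31. The part of these other cells in the member values of this fetus was not tested.

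**Figure D4:**
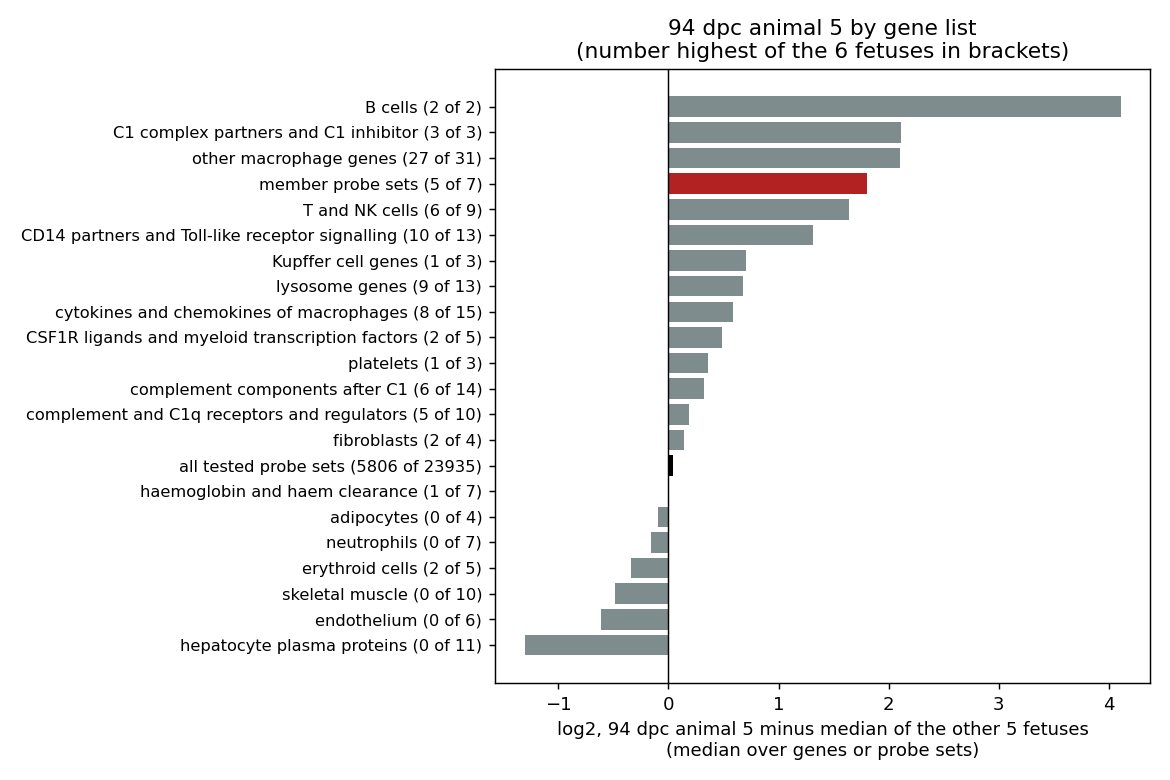
Fetus 5 of 94 dpc against the median of the other 5 fetuses, as the median log2 difference over the genes of each list, with the number of genes in which it was the highest in brackets. The member probe sets lie at 1.80 and the other macrophage genes at 2.10, all tested probe sets at 0.04 and the skeletal muscle genes at -0.49.

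Within stages, the C1q chains and CD163 rose and fell together from animal to animal. For r, the stage mean was taken off each log2 value. For rho, the values were ranked over the 24 arrays and the stage mean of the ranks was taken off. C1QA and C1QC had r = 0.88 and rho = 0.86 (adjusted p = 0.0001 for each, permutation within stages), and r = 0.78 without fetus 5. That p is the smallest the permutations can give over 10 pairs. CD163 and C1QC had r = 0.83 and rho = 0.72 (permutation, adjusted p = 0.00015 and 0.00055), and 0.71 without fetus 5. CD163 and C1QA had r = 0.81 and rho = 0.71 (permutation, adjusted p = 0.001 and 0.00207), and 0.64 without it. Leaving out the 2 arrays farthest from the median gave 0.76, 0.72 and 0.64 for these pairs. The 3 newborns of low 5′ signal were kept throughout. Their C1QC was 364, 365 and 576, against 1624, 1121 and 2886 in the other newborns. Their C1QA was 211, 119 and 263, against 397, 252 and 408. Their CD163 was 288, 248 and 388, against 418, 344 and 533. The part of these arrays in the relations was not tested.

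AIF1 and CD14 behaved otherwise. AIF1 had r = 0.69 with C1QC, 0.75 with C1QA and 0.65 with CD163 (permutation, adjusted p = 0.0252, 0.0331 and 0.0343). Without fetus 5 these were 0.35, 0.30 and 0.26, so the size of r in these 3 pairs depended on that fetus. No test was made without it. The ranks of AIF1 and C1QC gave rho = 0.55 (permutation, adjusted p = 0.0261), and those with C1QA and CD163 did not pass (0.25 and 0.21). CD14 had r = 0.32 with CD163, 0.16 with C1QA, 0.40 with C1QC and -0.00 with AIF1, and none of these 4 passed. Without fetus 5, which was not raised in CD14, they were higher, at 0.49, 0.38, 0.61 and 0.11. Leaving out the 2 arrays farthest in CD14, newborn 1 and 188 dpn animal 2, gave 0.25 with C1QC. Whether CD14 follows C1QC or CD163 thus depends on single arrays and is left undecided. Each stage drew on 3 gilts, and neither mother nor processing batch is given for an array, so the arrays may not be independent.

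**Figure D5:**
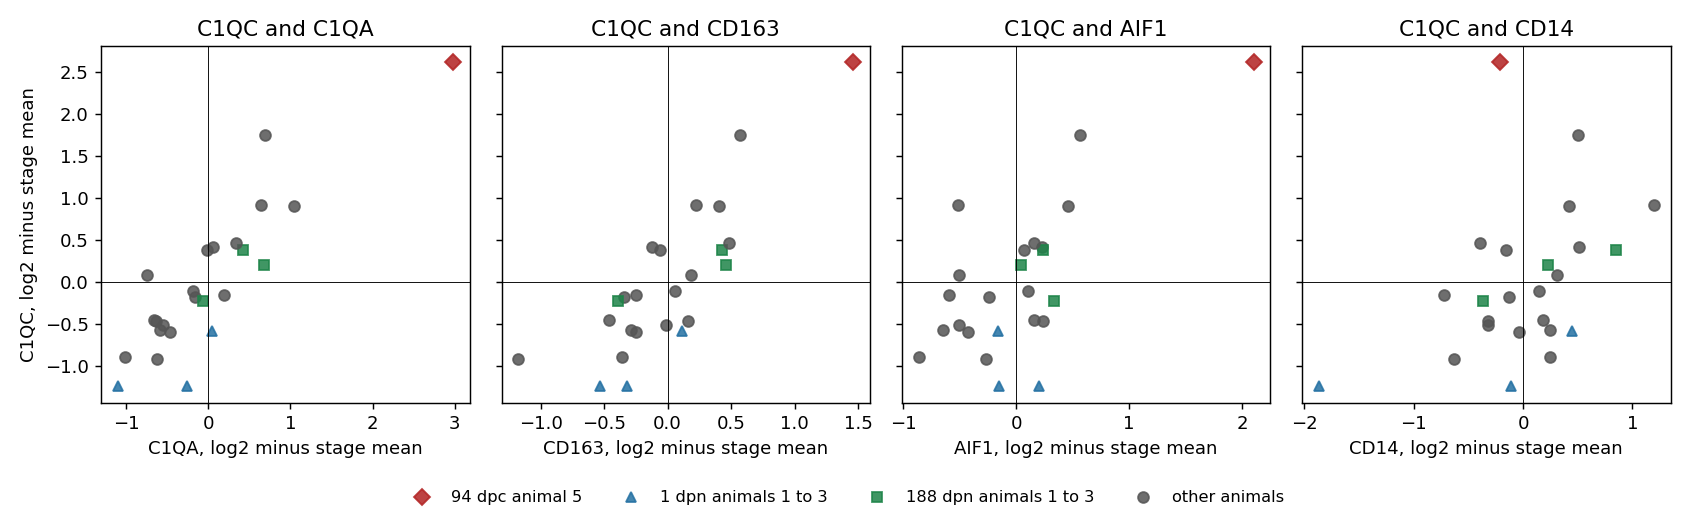
C1QC (vertical axis) against C1QA, CD163, AIF1 and CD14, each as log2 intensity minus the mean of its stage, 1 point per array. The points of C1QA and CD163 rise with C1QC (r = 0.88 and 0.83). Those of AIF1 have r = 0.69, and 0.35 without fetus 5. CD14 has the lowest r with all arrays, 0.40, but 0.61 without fetus 5, above that of AIF1.

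The genes whose levels were most like the mean of C1QA and C1QC over the 24 arrays were LAPTM5 (r = 0.88), SLA-DQB1 (0.87), LOC106504372 (0.87), SLA-DQA1 (0.86) and VSIG4 (0.85). SLA-DQA1 and SLA-DQB1 encode the chains of a pig class II molecule that presents antigen. Without fetus 5 their r was 0.82 for LAPTM5, 0.86 for SLA-DQB1, 0.82 for LOC106504372, 0.85 for SLA-DQA1 and 0.72 for VSIG4, and 4 of these 5 were still among the 5 most alike. SLA-DQB1 had geometric means of 1762, 721, 2552 and 1223 from the youngest to the oldest stage, with the same order of stages as C1QC but not as C1QA. It was picked for its likeness over these same arrays, so a shared order is no separate result.

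The 5 genes most like CD163 were ACP5 (r = 0.77), JAK3 (0.77), MRC1 (0.76), LOC100524999 (0.75) and LOC100624077 (0.69). MRC1 is the mannose receptor of macrophages, and ACP5 an acid phosphatase of osteoclasts and macrophages. Without fetus 5 these values were 0.54, 0.60, 0.65, 0.48 and 0.44, and only MRC1 was still among the 5 most alike, beside KLF11, AIF1L, C9H11orf52 and PES1. Those most like AIF1 were GM2A (0.91), SP140 (0.86), CCL2 (0.84), TPM3 (0.83) and PSME2 (0.83), and without fetus 5 they were 0.81, 0.79, 0.71, 0.87 and 0.76. Of these 5, GM2A and TPM3 were still among the most alike, beside TMSB10, CCND2 and RCN1. CD14 was most like THAP3 (0.81), NEMF (0.76), NAT10 (0.73), MLF2 (0.72) and LOC100524554 (0.71), none of which is a known macrophage marker. Like CD14, each of these had its lowest reading at 1 dpn. For THAP3 it was 15.1, against at least 196 at the other stages, and for NEMF 10.4 against at least 96.8. The 3 newborns of low 5′ signal were kept in the likeness of every member, and their part was not tested. All these likenesses are descriptions over arrays that share stages, and no test was made.

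None of the 3 partners of C1q passed in any comparison, where 14.6% to 39.9% of all tested probe sets did. Their summed intensity varied widely within stages. It was 25770 and 21833 in 188 dpn animals 1 and 2, against 8421 to 11143 in the other animals of that stage. At 94 dpc it was 31260 in fetus 5, against 9370 to 12707 in the other fetuses, and at 1 dpn it was 5518 to 22787. C1R, C1S and SERPING1, the 3 genes of that list, had none below an adjusted p of 0.05 with limma, and SERPING1, the brightest, had geometric means of 5711, 3200, 4728 and 5560 from the youngest to the oldest stage. Of 14 measured components after C1, 2 were higher and 1 lower at 188 dpn against 94 dpc, with a list median of 0.86. Among all tested probe sets 12.5% were higher and 27.4% lower. Without the 3 animals of 188 dpn with high plasma protein signal, 1 was higher and 2 lower and the median was -0.36. The shares of all were then 10.4% and 22.7%. CFD, the brightest, is factor D of the alternative pathway and is made by fat cells, and its geometric mean was 5413 at 188 dpn and 1995 at 94 dpc.

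Among 10 measured receptors and regulators of complement, 1 was higher and 2 lower at 188 dpn against 94 dpc, with a list median of -0.48. The shares of all tested probe sets were 12.5% higher and 27.4% lower. CD93, once proposed as a C1q receptor, rose by 1.78 (adjusted p = 0.00161), with 911 at 188 dpn and 265 at 94 dpc. CALR, which binds C1q at the cell surface, fell by 0.71 (adjusted p = 9.54e-05), and CD46, which guards cells against complement, fell by 0.64 (adjusted p = 0.000991). With arrays centred on their medians CALR was -0.18 and CD46 -0.11, and neither passed. CD59, the brightest of the list, had geometric means of 3771, 2387, 2205 and 3053 over the stages.

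Of 44 other macrophage genes 31 were measured. Against 94 dpc, 3 were higher and 4 lower at 188 dpn, with a list median of -0.31, and without fetus 5 these were 4 and 2 with a median of 0.11. Among all tested probe sets 12.5% were higher and 27.4% lower, and 12.0% and 25.7% without fetus 5. LYVE1, a hyaluronan receptor of lymph vessels and of resident macrophages, fell by 2.30 (SE 0.24, adjusted p = 6.95e-08). It was 168, 74, 51, 72, 81 and 62 at 188 dpn, against 431, 370, 303, 404, 436 and 389 at 94 dpc, with no overlap, and 4 of the 6 readings at 188 dpn lay under background. CYBA, a subunit of the oxidase that makes superoxide, fell by 2.66 (adjusted p = 5.33e-05), with 249 at 188 dpn and 1569 at 94 dpc.

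In the same comparison CTSC, a protease of lysosomes, rose by 1.92 (adjusted p = 1.05e-05), with 2568 at 188 dpn and 679 at 94 dpc. FCGR2B, the inhibitory receptor for IgG, was 322 at 188 dpn and under background at 94 dpc, where it read 41.8, and was at least 3.65-fold higher (adjusted p = 0.000289). All 4 of these calls also passed without fetus 5 and without the 7 arrays. LGMN, an endopeptidase of lysosomes and the brightest gene of the list, had geometric means of 2879, 1757, 2036 and 1986 over the stages. Beside AIF1, macrophage genes of the list thus fell (LYVE1, CYBA) and rose (CTSC, FCGR2B) in the same comparison.

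At 188 dpn against 28 dpn 1 of the 31 was higher and 1 lower, with a list median of -0.38 where that of all probe sets was -0.18. Of all tested probe sets 4.12% were higher and 10.5% lower. LYVE1 fell by 1.54 (adjusted p = 0.000128), with 78.3 at 188 dpn, near background, and 227 at 28 dpn. CTSC rose by 1.22 (adjusted p = 0.00538), with 2568 at 188 dpn and 1100 at 28 dpn. At 28 dpn against 94 dpc 3 were higher and 3 lower, where 10.4% of all tested probe sets were higher and 17.5% lower. At 188 dpn against 1 dpn 6 were higher and 3 lower, where 14.1% of all were higher and 20.8% lower.

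At 1 dpn against 94 dpc 2 of the 31 were higher and 5 lower, and without the 3 newborns of low 5′ signal 2 were higher and 1 lower. Among all tested probe sets the shares were 10.1% and 20.8%, and 8.48% and 17.2% without these newborns. CD209, a lectin of macrophages and dendritic cells, was 453 at 1 dpn and 74.0 at 94 dpc, and was at least 4.40-fold higher (adjusted p = 0.000468). LAPTM5 fell by 1.94 (adjusted p = 0.00104), with 217 at 1 dpn and 832 at 94 dpc, and without the 7 arrays the difference was -0.88 (adjusted p = 0.0592). FCGR3A, a receptor for IgG, fell by 2.47 (adjusted p = 0.0156) and CYBA by 1.77 (adjusted p = 0.00489), but without the 3 newborns FCGR3A was -0.84 (adjusted p = 0.330) and CYBA -0.77 (adjusted p = 0.209).

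At 28 dpn against 1 dpn 4 of the 31 were higher and 1 lower, and without the 3 newborns of low 5′ signal 1 was higher and none lower with limma. Among all tested probe sets the shares were 11.6% and 9.10%, and 7.73% and 5.18% without these newborns. MARCO, a scavenger receptor, was 100 at 28 dpn and under background at 1 dpn, where it read 18.1, and was at least 1.33-fold higher (adjusted p = 0.00118). FCGR3A rose by 2.59 (adjusted p = 0.0170) and LAPTM5 by 1.89 (adjusted p = 0.00227). Without the 3 newborns they were 0.97 (adjusted p = 0.321) and 1.23 (adjusted p = 0.0869). Without the 7 arrays, which include these newborns, LAPTM5 was 1.23 and passed (adjusted p = 0.0168), while FCGR3A was 0.97 and did not (adjusted p = 0.149).

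The factors that drive myeloid cells were measured for 5 of 10 genes. CEBPB, the brightest and a factor also active in many other cells, rose by 3.14 at 188 dpn against 94 dpc (adjusted p = 2.44e-08), with 11415 at 188 dpn and 1295 at 94 dpc and no overlap. IRF8, which directs monocytes and dendritic cells, fell by 1.84 at 1 dpn against 94 dpc (adjusted p = 0.00184) and rose by 1.36 at 28 dpn against 1 dpn (adjusted p = 0.0246). That rise was 1.33 without the 3 newborns of low 5′ signal and did not pass (adjusted p = 0.0958), and 1.33 without the 7 arrays, where it passed (adjusted p = 0.0162). It also did not pass without newborn 3 (adjusted p = 0.0667), newborn 6 (adjusted p = 0.0571) or animal 5 of 28 dpn (adjusted p = 0.0550). SPI1, also called PU.1, rose by 1.84 at 1 dpn against 94 dpc (adjusted p = 0.0189), and was 1.29 without the 3 newborns of low 5′ signal (adjusted p = 0.206) and 1.58 without fetus 1 (adjusted p = 0.0524). At 94 dpc SPI1 was 359 in fetus 5 and 34.7 to 92.1 in the other fetuses. Their median of 58.7 lay under background, so the size of this rise is uncertain. The list had 1 gene higher and 1 lower at 188 dpn against 94 dpc, where 12.5% of all tested probe sets were higher and 27.4% lower.

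Of 13 measured partners of CD14 and genes of Toll-like receptor signalling, 1 was higher and 3 lower at 1 dpn against 94 dpc, and 1 higher and 2 lower at 28 dpn against 1 dpn. The shares of all tested probe sets were 10.1% higher and 20.8% lower, and 11.6% and 9.10%, in that order. MYD88, the adaptor of most Toll-like receptors, was 64.9 at 1 dpn, under background, and 222 at 94 dpc, and was at least 2.18-fold lower (adjusted p = 0.00288). LY96, which binds lipopolysaccharide together with TLR4, fell by 1.27 at 28 dpn against 1 dpn (adjusted p = 0.00517), and was -0.73 without the 3 newborns (adjusted p = 0.158). IRAK1, the brightest, had geometric means of 1178, 2305, 1614 and 2831 over the stages.

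Of 7 measured genes of haemoglobin and haem clearance, the task of CD163, 2 were higher and none lower at 188 dpn against 94 dpc with limma. Among all tested probe sets 12.5% were higher and 27.4% lower. BLVRA, which reduces biliverdin to bilirubin, rose by 1.21 (adjusted p = 0.000435), with 647 at 188 dpn and 279 at 94 dpc. FTL, the light chain of ferritin, rose by 0.75 (adjusted p = 0.00364), and was 0.30 with quantile normalization (adjusted p = 0.222). HMOX1, the haem oxygenase of macrophages, fell by 1.01 at 28 dpn against 94 dpc (adjusted p = 0.0199), with 270 at 28 dpn and 543 at 94 dpc, but was -0.73 with quantile normalization (adjusted p = 0.0876) and -0.74 with arrays centred on their medians (adjusted p = 0.0996). FTH1, the heavy chain of ferritin, was the brightest, at 33062 to 52398 over the stages.

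Of 15 measured cytokines and chemokines, 1 was higher and 4 lower at 188 dpn against 94 dpc. For this list and the lysosome genes below, the shares of all tested probe sets were 12.5% higher and 27.4% lower. IL18 fell by 2.05 (adjusted p = 0.00207), TGFB1 by 1.30 (adjusted p = 0.000189) and CCL2, a chemokine for monocytes and the brightest of the list, by 1.63 (adjusted p = 0.00550). CCL2 was -1.25 with quantile normalization (adjusted p = 0.0503) and -1.09 with arrays centred on their medians (adjusted p = 0.0527), and did not pass in either. CXCL2, a chemokine for neutrophils, rose by 1.74 (adjusted p = 0.00964), with 340 at 188 dpn and 102 at 94 dpc. Of 13 measured lysosome genes 2 were higher and 6 lower: GUSB fell by 1.56 (adjusted p = 1.37e-05), HEXA by 0.98 (adjusted p = 5.02e-06), and CTSD rose by 1.08 (adjusted p = 3.41e-06). CD63, a tetraspanin of lysosomes, was the brightest of that list.

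Of the 6 Kupffer cell genes, which mark the macrophages of liver, 3 were measured: VSIG4, MARCO and CD5L. CD5L was 1117, 701 and 183 in 188 dpn animals 1, 2 and 3, against 24.8 to 47.2 in the other 3 animals of that stage, and these are the animals with the high plasma protein sums. Only CD5L of the 3 genes is given by animal here, and it does not stand for VSIG4 or MARCO. VSIG4 was 171 to 598 over all animals of 188 dpn. C1QC in those 3 animals was 1819, 2059 and 1351, against 836 to 2183 in the other 3, and the ranges overlapped. CD163 was 408, 399 and 226, against 131 to 415. The part of these animals' other tissue signal in the member values was not tested.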

How the data were processed

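The deposited values are signal intensity per probe set and array. The authors used GCOS 1.1.1, per the submitters' processing notes; the scaling settings are not given in the sources used here. The mean of each array without its extremes was 498 to 499. Of 24118 probe sets 183 controls were left out and 23935 tested, with no filter on low values. Symbols come from the platform annotation; 10069 tested probe sets have 1 symbol, for 6765 genes, each represented by its brightest probe set.

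Log2 of the deposited intensity, with nothing added, was fitted with limma 3.58.1 in R 4.3.3 (lmFit, eBayes; 24 arrays, 4 stage means, 20 residual degrees of freedom). Tests were two-sided, and p-values were adjusted by Benjamini-Hochberg over the 23935 probe sets, with 0.05 as threshold. Background, the 95th percentile of 17 Tag controls, was chosen after the data were seen. If a single stage mean was dimmer, the fold is a bound ("at least"), with dimmer readings raised to background. Pairs of members were tested by 100000 permutations within stages. Pipelines were tested on simulated data.

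Members and gene lists were chosen with earlier results of these data known. Named genes are all members, the brightest of each list, up to 4 of a list past the threshold with the largest difference in a comparison, and the 5 genes most like each member; others were chosen after their values were seen. Animal numbers follow sample order and carry no pairing. Mother, sex and batch are not in the labels. With arrays, their number limits the precision. Alternatives were other scalings, constants, filters, thresholds and fits, and arrays left out. Figures used Python with matplotlib.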

Additional observations from a re-analysis of the deposited data

Results flagged for a closer look

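In groups of 6 animals, 28 combinations of a member probe set and a stage were checked for an animal far from the others by Dixon's criterion, which chance meets in about 1 of 20 groups. It was met in 5. Of these 4 are fetus 5 at 94 dpc: CD163 at 1040, C1QA at 3478, C1QC at 15868 and AIF1 at 2927, each the highest of the 6 fetuses. The other is the second CD163 probe set at 28 dpn, where animal 1 read 7.05 against 40.3 to 71.2 in the other 5 animals, all under background.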

How the results depend on the processing

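The counts of called members were 2, 1, 1, 0, 1 and 1 of 7 at 1 dpn against 94 dpc, 28 dpn against 1 dpn, 188 dpn against 28 dpn, 28 dpn against 94 dpc, 188 dpn against 1 dpn and 188 dpn against 94 dpc, and 2 in the F test. With quantile normalization 188 dpn against 28 dpn had 0, and with arrays centred on their medians 0. Centring also gave 1 at 1 dpn against 94 dpc and 2 at 188 dpn against 94 dpc. Without the dimmest 30% of probe sets 1 dpn against 94 dpc had 1 and 188 dpn against 1 dpn 0, and with array weights both had 0. With only the 2 stages compared in the fit there were 1 at 1 dpn against 94 dpc, 3 at 188 dpn against 28 dpn and 2 at 188 dpn against 1 dpn. At an adjusted p of 0.01 there were 0 at 1 dpn against 94 dpc, 28 dpn against 1 dpn, 188 dpn against 28 dpn and 188 dpn against 1 dpn, and 1 in the F test. Without 1 dpn animals 1 to 3 there were 0 in the 3 comparisons with 1 dpn and 1 in the F test. Without 188 dpn animals 1 to 3 there were 0 at 188 dpn against 28 dpn and at 188 dpn against 1 dpn. Without the 7 arrays, an alternative chosen after seeing the data, there were 0 at 1 dpn against 94 dpc, 0 at 28 dpn against 1 dpn and 2 at 188 dpn against 28 dpn. Over all the fits that leave out no single animal, the share of all tested probe sets that passed ranged from 20.2% to 44.8%, 11.4% to 32.6%, 7.75% to 23.5%, 17.8% to 40.6%, 23.3% to 49.9% and 30.2% to 55.1% in the 6 comparisons in the order above, and was 18.3% at 188 dpn against 28 dpn with only those 2 stages in the fit.

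With each animal left out in turn the counts ranged from 0 to 2 at 1 dpn against 94 dpc. They ranged from 1 to 2 at 28 dpn against 1 dpn and in the F test. At 188 dpn against 28 dpn and at 188 dpn against 1 dpn they ranged from 0 to 2. In these fits 27.4% to 31.2% of all tested probe sets passed at 1 dpn against 94 dpc. The share was 17.8% to 22.5% at 28 dpn against 1 dpn. It was 11.8% to 15.5% at 188 dpn against 28 dpn and 32.2% to 35.6% at 188 dpn against 1 dpn. For the F test the share of all is given only for the main fit with all arrays. C1QC at 1 dpn against 94 dpc did not pass without fetus 5 or without newborn 1, 2 or 3 (adjusted p = 0.0756, 0.0712, 0.0713 and 0.0584); over all alternatives its adjusted p was 0.00662 to 0.938. AIF1 at 188 dpn against 28 dpn did not pass without animal 3, 4, 5 or 6 of 28 dpn or animal 5 or 6 of 188 dpn (adjusted p = 0.0595 to 0.0741); over all alternatives its adjusted p was 0.00125 to 0.136. The cause of these shifts was not tested. No paired analysis was possible because the labels carry no replicate numbers. The spread within stages and the background level limit what the second CD163 and CD14 probe sets can show.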
